A study of Mus musculus with 12 samples.

Results

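Hoxa5, Hoxa7, Hoxa9, Hoxa10, Hoxb2, Hoxb3, Hoxb4, Meis1 and Pbx3 are transcription factor genes associated with self-renewal of hematopoietic stem and progenitor cells (HSC/Ps). They were chosen by name, and a gene was counted as measured when its symbol stood in the deposited table of bone marrow (BM) RNA-Seq counts. Of these 9 genes, 6 were measured: Hoxa7, Hoxa9, Hoxb3, Hoxb4, Meis1 and Pbx3. Each passed the filter on low counts and was tested among 12175 of the 12199 genes in the table. Hoxa5, Hoxa10 and Hoxb2 were not analysed here.

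RNA was from BM cells of C57BL/6 mice of 4 genotypes, and the study asked how heterozygous lesions of Tet2 and Dnmt3a act together with Flt3-ITD. Tet2 oxidizes methyl groups on DNA, Dnmt3a adds them, and the ITD is an internal tandem duplication that activates the Flt3 receptor kinase. DF mice carried Dnmt3aFlox/+ with MxCre and Flt3 ITD/+ (3 libraries), TF mice Tet2+/- and Flt3ITD/+ (3 libraries), and TFD mice all of these alleles (2 libraries, with TFD replicate 3 not analysed here). The WT mice (3 libraries) are described as wild type. The animals of every genotype were given poly(I:C), which switches on MxCre in every interferon-responsive cell and not in blood cells alone, whereas the Tet2 allele was germline. The labels give no Cre for WT or TF, no library carried Flt3-ITD alone, and so against WT the parts of the single alleles cannot be told apart. The labels call the tissue whole marrow mononuclear cells, and markers of stem cells, granulocyte-macrophage progenitors (GMPs), monocytes, neutrophils, B cells and erythroid cells were detected in every genotype. The labels name no litter, age or date, and call the mutants knockdowns although the listed alleles are heterozygous.

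Depth over the genes of the table ranged from 8274153 to 15900904 reads per library. Reads over the whole of the targeted genes did not check the genotypes, since Tet2 had 136.0 to 205.0 CPM (read counts scaled to library size) in TF and 148.0 to 169.0 in WT, and Dnmt3a 38.0 to 46.4 CPM in DF and 30.9 to 57.8 in WT. None of the 43 other genes of the Hox clusters that were looked for was in the table.

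HOX proteins bind DNA through a homeodomain, and their genes lie in clusters in which neighbours are often switched on together. PBX3 and MEIS1 belong to the TALE homeodomain family and bind DNA as partners of HOX proteins. In normal marrow, genes of the HoxA and HoxB clusters are active in stem and early progenitor cells and are shut down as cells mature. Forced expression of Hoxa9 with Meis1 causes acute myeloid leukemia in mice, and forced Hoxb4 expands stem cells.

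The promoters of the genes that differed are shown because Tet2 and Dnmt3a act on methylation of CpG sites, although these libraries hold RNA and no methylation was measured. RefSeq promoters (GRCm38.p6, the assembly of mm10) were found for Hoxa7, Hoxa9, Hoxb4 and Meis1, and for these 4 the annotated start equals the 5′ end of the deposited gene. The 250 bases before the start site are given 5′ to 3′ on the gene's strand, with CpG sites in capitals.
Hoxa7 (chr6:52218574-52218823, minus strand): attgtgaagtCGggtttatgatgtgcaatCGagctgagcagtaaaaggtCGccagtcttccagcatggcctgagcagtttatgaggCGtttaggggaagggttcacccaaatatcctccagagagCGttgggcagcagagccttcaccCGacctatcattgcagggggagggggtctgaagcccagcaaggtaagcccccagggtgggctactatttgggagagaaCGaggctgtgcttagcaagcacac
Hoxa9 (chr6:52227371-52227620, minus strand): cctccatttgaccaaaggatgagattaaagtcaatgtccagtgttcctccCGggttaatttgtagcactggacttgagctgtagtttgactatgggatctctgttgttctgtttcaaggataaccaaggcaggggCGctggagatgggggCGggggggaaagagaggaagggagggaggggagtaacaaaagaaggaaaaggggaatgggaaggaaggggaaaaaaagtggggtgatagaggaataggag
Hoxb4 (chr11:96318017-96318266, plus strand): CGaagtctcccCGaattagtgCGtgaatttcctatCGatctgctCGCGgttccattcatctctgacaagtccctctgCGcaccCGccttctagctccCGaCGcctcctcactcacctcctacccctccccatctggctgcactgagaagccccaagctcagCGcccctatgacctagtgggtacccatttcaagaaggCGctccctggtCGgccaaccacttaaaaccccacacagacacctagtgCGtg
Meis1 (chr11:19018970-19019219, minus strand): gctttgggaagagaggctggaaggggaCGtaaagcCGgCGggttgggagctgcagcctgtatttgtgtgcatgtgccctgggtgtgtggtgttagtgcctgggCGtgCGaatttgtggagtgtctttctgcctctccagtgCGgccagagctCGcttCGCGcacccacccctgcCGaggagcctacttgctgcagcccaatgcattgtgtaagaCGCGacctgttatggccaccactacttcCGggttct

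Hoxa9 had the fewest CpG sites of these windows, 3, and Hoxa7 had 7, around the median of 6 over 32851 promoter windows of the same length. Hoxb4 had 14 and Meis1 had 13, more than 70.6% and 68.5% of all windows. A HOX-PBX motif, TGATTNAT, was looked for on both strands and was in none of the 4 windows, against 2.82% of all windows. A MEIS core motif, TGACAG, was also in none of them, against 15.9% of all. No match says only that these letters are absent from these 250 bases.

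The 6 genes were all of low or moderate level. Per kilobase (kb) of exon, WT marrow had 3.46 ± 0.841 CPM per kb of Pbx3 and 3.30 ± 0.283 of Meis1 (SD, n = 3), the highest levels of the 6. Hoxb4 followed at 0.895 ± 0.174 and Hoxa9 at 0.771 ± 0.203 CPM per kb, then Hoxa7 at 0.221 ± 0.128 and Hoxb3 at 0.165 ± 0.0762. Neighbours within each of these pairs did not differ beyond their SDs, whereas the pairs did not overlap. Among all tested genes these WT levels stood at percentiles from 1.19 (Hoxb3) to 24.1 (Pbx3). In DF marrow the order was Meis1, Pbx3, Hoxa9 level with Hoxb4, Hoxa7 and Hoxb3. Pbx3 there had 1.72 ± 0.399 CPM per kb, within an SD of the 1.59 ± 0.339 of Hoxa9 and the 1.59 ± 0.289 of Hoxb4.

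Hox genes of the HoxA cluster, Hoxa7 and Hoxa9, were higher in each mutant genotype than in WT. Hoxa7 lies at chr6:52215624-52218573 and Hoxa9 at chr6:52223097-52227370 (mm10, minus strand), 4523 bases apart. Hoxa9, which is activated in many acute myeloid leukemias, had 35, 14 and 32 reads in WT replicates 1 to 3, which are 2.87, 1.73 and 2.87 CPM. It had 64, 97 and 41 reads in DF (5.08, 6.24 and 4.06 CPM), 69, 70 and 55 in TF (5.58, 5.73 and 5.02 CPM), and 76 and 64 in TFD (4.75 and 5.70 CPM). Every mutant library was thus above every WT library, and the mutant genotypes overlapped. Over all genes tested, every library was above every WT library for 28.8% in DF, 26.1% in TF and 26.0% in TFD, and below every WT library for 22.5%, 22.9% and 23.5%. WT averaged 2.49 ± 0.656 CPM, DF 5.13 ± 1.09, TF 5.44 ± 0.374 (SD, n = 3 each) and TFD 5.23 ± 0.672 (SD, n = 2). Hoxa9 rose 2.04-fold in DF (log2 fold change 1.03, SE 0.25, adjusted p = 0.00676), 2.15-fold in TF (1.10, SE 0.25, adjusted p = 0.00495) and 2.05-fold in TFD (1.04, SE 0.27, adjusted p = 0.0139), by edgeR's quasi-likelihood test. Without TFD replicate 2 the TFD value was 0.91 (adjusted p = 0.074), and the DF and TF calls held with any library left out.

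Hoxa7, the neighbour of Hoxa9, was near the floor of detection in WT. It had 4, 2 and 8 reads in WT, 19, 19 and 13 in DF, 22, 27 and 21 in TF, and 26 and 24 in TFD. In CPM these are 0.328, 0.248 and 0.716 in WT, 1.51, 1.22 and 1.29 in DF, 1.78, 2.21 and 1.92 in TF, and 1.63 and 2.14 in TFD. No mutant library overlapped WT, every DF library was below every TF library, and both TFD libraries were above every DF library. Of all genes tested, 12.1% had every DF library below every TF library and 14.1% every TFD library above every DF library, and neither difference was called for Hoxa7 (adjusted p = 0.409 and 0.589; edgeR). Hoxa7 rose 2.98-fold in DF (log2 fold change 1.57, 95% confidence interval 0.68 to 2.46, adjusted p = 0.00973), 4.37-fold in TF (2.13, 1.27 to 2.99, adjusted p = 0.00153) and 4.14-fold in TFD (2.05, 1.13 to 2.97, adjusted p = 0.00375; edgeR). These were the largest fitted changes of the 6 genes in TF and TFD, and the calls held with any library left out and under every alternative fit. With so few reads the values are coarse: the 95% Poisson interval of the 2 reads in WT replicate 2 runs from 0.242 to 7.22 reads, and it covers counting error only.

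The HoxB pair, Hoxb4 at chr11:96318267-96321638 and Hoxb3 at chr11:96323126-96347930 (mm10, plus strand), lies with 1487 bases between its genes. Hoxb4, known as an expander of stem cells, had 23, 18 and 31 reads in WT, 62, 55 and 38 in DF, 51, 68 and 42 in TF, and 74 and 50 in TFD. In CPM, WT had 1.89, 2.23 and 2.78, DF 4.92, 3.54 and 3.76, TF 4.12, 5.56 and 3.83, and TFD 4.63 and 4.46. The WT libraries lay below all others. Hoxb4 rose 1.77-fold in DF (log2 fold change 0.82, SE 0.26, adjusted p = 0.0232), 1.96-fold in TF (0.97, SE 0.26, adjusted p = 0.011) and 1.98-fold in TFD (0.98, SE 0.28, adjusted p = 0.0198; edgeR). The DF call was lost without WT replicate 1, WT replicate 2 or DF replicate 1 (0.65, 0.80 and 0.65), and the TF call without TF replicate 2 (0.79, adjusted p = 0.0529). The TFD call was lost without WT replicate 1, WT replicate 2, TFD replicate 1 or TFD replicate 2, with values from 0.85 to 1.02 and adjusted p up to 0.0811.

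Hoxb3, the neighbour of Hoxb4, was as scarce in WT as Hoxa7, with 4, 5 and 10 reads. DF libraries had 29, 19 and 22 reads, TF libraries 22, 26 and 15, and TFD libraries 29 and 12. These are 0.328, 0.619 and 0.895 CPM in WT, 2.30, 1.22 and 2.18 in DF, 1.78, 2.13 and 1.37 in TF, and 1.81 and 1.07 in TFD. Every mutant library was above every WT library, and TFD replicate 2 came nearest to them. Hoxb3 rose 3.05-fold in DF (log2 fold change 1.61, SE 0.44, adjusted p = 0.013) and 2.87-fold in TF (1.52, SE 0.45, adjusted p = 0.0197). In TFD its log2 fold change of 1.26 did not pass the threshold (95% confidence interval 0.20 to 2.32, adjusted p = 0.0763; edgeR). The DF call was lost without WT replicate 1 or DF replicate 1 (1.24 and 1.42), and the TF call without WT replicate 1, WT replicate 2 or TF replicate 2 (1.17, 1.53 and 1.36, adjusted p up to 0.082). Without TFD replicate 1 the TFD value was 0.80. Exons of Hoxb3 overlap the antisense gene Hoxb3os in GENCODE M21, which is not in the count table, and the strand setting of the counting is not given in the sources used here.

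**Figure D1:**
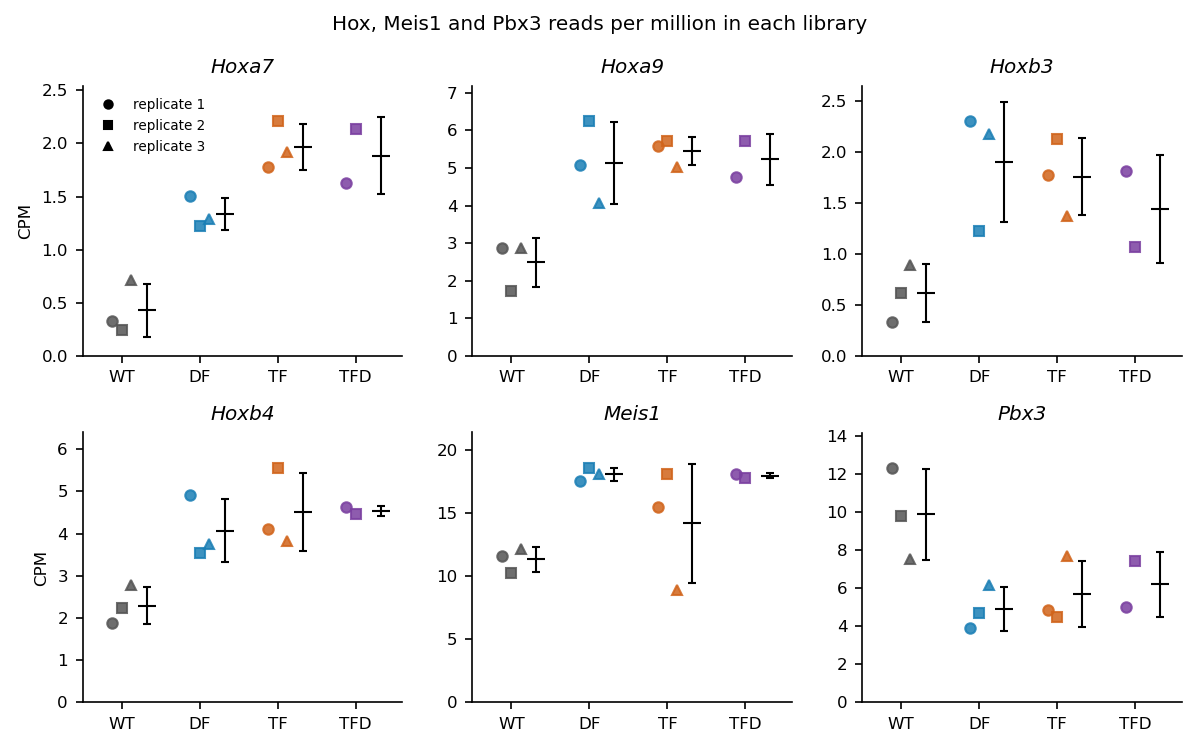
CPM of the 6 measured genes in each library on the y axis, by genotype on the x axis. Points are libraries, shaped by replicate number, and the bar beside them is the mean ± SD (n = 3, and 2 for TFD). The 4 Hox genes lie above every WT library in all mutant libraries, Pbx3 lies below WT in DF and TFD, and Meis1 of TF replicate 3, at 8.94 CPM, lies below every WT library.

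Among HOX partners, Meis1 was higher in DF and TFD and Pbx3 was lower in DF and TF. Meis1 lies at chr11:18880428-19018969 (mm10, minus strand) and was the best measured of the 6, with 83 to 290 reads per library. Its exons overlap Gm37818, a same-strand gene of GENCODE M21 that is not in the count table. WT libraries had 11.6, 10.3 and 12.2 CPM, DF 17.5, 18.6 and 18.1, TF 15.5, 18.1 and 8.94, and TFD 18.1 and 17.8. DF and TFD libraries lay close together above all WT libraries, whereas TF replicate 3 lay below WT and the other TF libraries above. Meis1 rose 1.59-fold in DF (log2 fold change 0.67, SE 0.20, adjusted p = 0.0215) and 1.58-fold in TFD (0.66, SE 0.22, adjusted p = 0.0456; edgeR).

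Meis1 in TF was 0.32 (95% confidence interval −0.13 to 0.77, adjusted p = 0.244), and without TF replicate 3 it was 0.56 (adjusted p = 0.0095; edgeR). Without TF replicate 2 it was instead 0.11 (adjusted p = 0.728; edgeR). The Meis1 calls are fragile: the DF call was lost without any single WT or DF library (0.60 to 0.68, adjusted p up to 0.0747). The TFD call of Meis1 was lost without any single WT, DF or TFD library or TF replicate 1 (0.60 to 0.71, adjusted p up to 0.143). Without TF replicate 3 the Meis1 call in DF had an adjusted p of 0.00143 and that in TFD 0.00396. Beside the leave-outs, scaling by library totals or by RLE factors ended the TFD call of Meis1, at 0.66 (adjusted p = 0.0522) and 0.64 (adjusted p = 0.051; edgeR). A model term for the replicate number ended it too, at 0.58 (adjusted p = 0.107; edgeR).

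Pbx3, a PBX partner of HOXA9, was the exception in direction. It lies at chr2:34171457-34372045 (mm10, minus strand) and had 150, 79 and 84 reads in WT, 49, 73 and 62 in DF, 60, 55 and 84 in TF, and 80 and 83 in TFD. WT libraries had 12.3, 9.78 and 7.52 CPM, DF 3.89, 4.70 and 6.14, TF 4.85, 4.50 and 7.66, and TFD 5.003 and 7.40. DF and TFD libraries lay below every WT library, TFD replicate 2 by little, and TF replicate 3 lay just above the lowest WT library. Pbx3 fell to 0.494 of WT in DF (log2 fold change −1.02, SE 0.27, adjusted p = 0.0113) and to 0.572 of WT in TF (−0.81, SE 0.27, adjusted p = 0.0354; edgeR). In TFD its log2 fold change of −0.68 did not pass the threshold (95% confidence interval −1.34 to −0.03, adjusted p = 0.116). The DF call of Pbx3 held with any library left out, and the TF call was lost without WT replicate 1 (−0.62), WT replicate 2 (−0.81), TF replicate 1 (−0.71), TF replicate 2 (−0.67) or DF replicate 2 (−0.81, adjusted p = 0.0501). WT replicate 1 was the highest library for Pbx3, and its TFD value was −0.42 without TFD replicate 1 and −0.98 without TFD replicate 2.

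Counted at an adjusted p under 0.05, 5 of the 6 genes were higher and 1 lower in DF, where 21.0% of all genes tested were called higher and 16.6% lower. In TF 4 were higher and 1 lower, against 19.0% and 15.6% of all genes. In TFD 4 were higher and 0 lower, against 14.7% and 11.6%. The median log2 fold change of the 6 genes was 0.92 in DF, 1.04 in TF and 1.01 in TFD, beside 0.05, 0.02 and 0.01 over all genes. The 3 comparisons share the WT libraries, and Hoxa7 and Hoxb3 had more than 0.5 CPM in 1 and 2 of the 3 WT libraries but in all 8 mutant libraries, so they passed the filter through the mutants. These counts therefore describe the measured genes only. In bulk RNA, more cells that express a gene and more RNA of it per cell cannot be told apart.

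Between the mutant genotypes no difference in these genes passed the test. In DF versus TF 0 of 6 were called, against 1.67% of all genes called higher and 4.27% lower. In TFD versus DF 0 of 6 were called, against 0.0% and 0.0%, and in TFD versus TF 0 of 6, against 0.00821% and 0.00821%. At an unadjusted p under 0.05 the count was also 0 in each, and DESeq2 called 0 as well. The lowest unadjusted p was 0.106, for Meis1 in DF versus TF (log2 difference 0.35, 95% confidence interval −0.09 to 0.78, adjusted p = 0.39 by edgeR). With each library left out in turn, this Meis1 difference ranged from 0.11 to 0.56. For Hoxa7 the log2 difference was −0.55 in DF versus TF (−1.27 to 0.16), 0.48 in TFD versus DF (−0.31 to 1.26) and −0.08 in TFD versus TF (−0.84 to 0.69). The intervals for Hoxa9 were −0.58 to 0.43, −0.55 to 0.57 and −0.62 to 0.50 in the same order, and those for Hoxb4 were −0.66 to 0.37, −0.41 to 0.73 and −0.56 to 0.58. For Hoxb3 they were wider, −0.73 to 0.91, −1.27 to 0.57 and −1.19 to 0.67, so that a 2-fold difference between TFD and either double mutant lies within them. A 2-fold difference also lies within the intervals of Hoxa7 in DF versus TF and in TFD versus DF. Pbx3 had intervals of −0.82 to 0.39, −0.33 to 0.997 and −0.54 to 0.78, and Meis1 in TFD versus DF had −0.49 to 0.47.

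**Figure D2:**
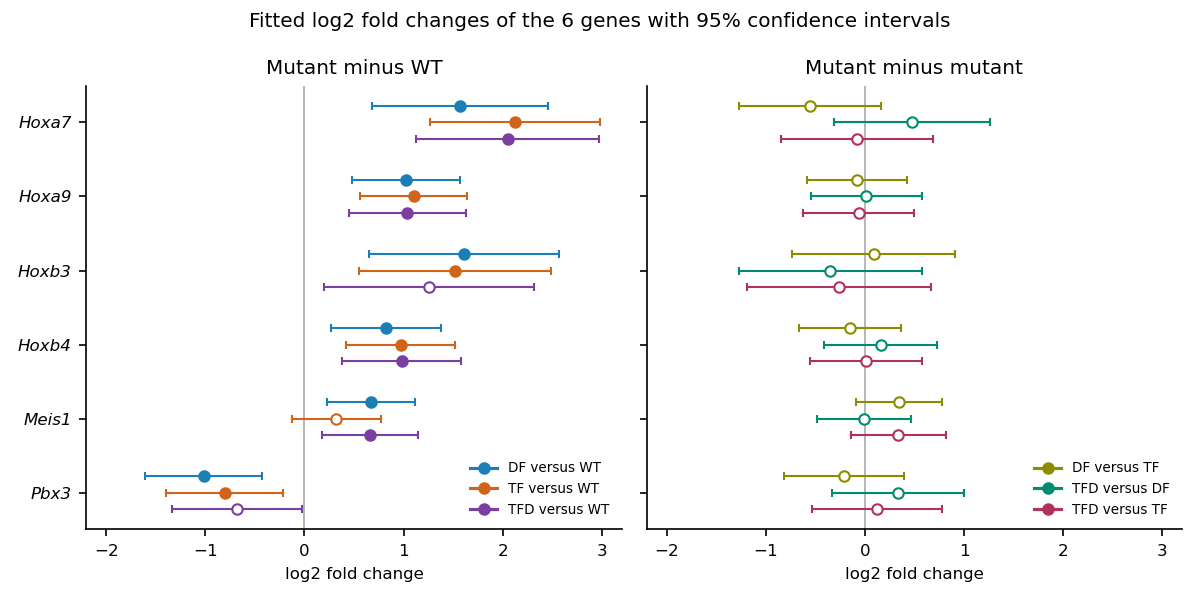
Log2 fold changes from edgeR with 95% confidence intervals on the x axis, mutant minus WT on the left and mutant minus mutant on the right, for the 6 genes on the y axis. Filled points have an adjusted p under 0.05. On the left all points but those of Pbx3 are above 0, with 3 open points (Hoxb3 and Pbx3 in TFD, Meis1 in TF), and on the right every interval includes 0.

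Ratios of read counts within a library do not depend on how libraries are scaled. Reads of Hoxa9 per read of Pbx3 ranged from 0.177 to 0.381 in WT, from 0.661 to 1.33 in DF, from 0.655 to 1.27 in TF and from 0.771 to 0.95 in TFD. WT and mutant ranges of this ratio did not overlap. The ratio restates the higher Hoxa9 and lower Pbx3 of the same libraries and is no separate evidence. Reads of Meis1 per read of Pbx3 ranged from 0.94 to 1.62 in WT, from 2.95 to 4.51 in DF, from 1.17 to 4.02 in TF and from 2.41 to 3.62 in TFD. TF replicate 3 alone reached into the WT range, at 1.17. Reads of Hoxa7 per read of Hoxa9 were 0.114 to 0.25 in WT, 0.196 to 0.317 in DF, 0.319 to 0.386 in TF and 0.342 to 0.375 in TFD, so that WT overlapped DF but neither TF nor TFD. Hoxb4 per Hoxa9 overlapped in all genotypes, from 0.567 to 1.29 over all libraries.

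**Figure D3:**
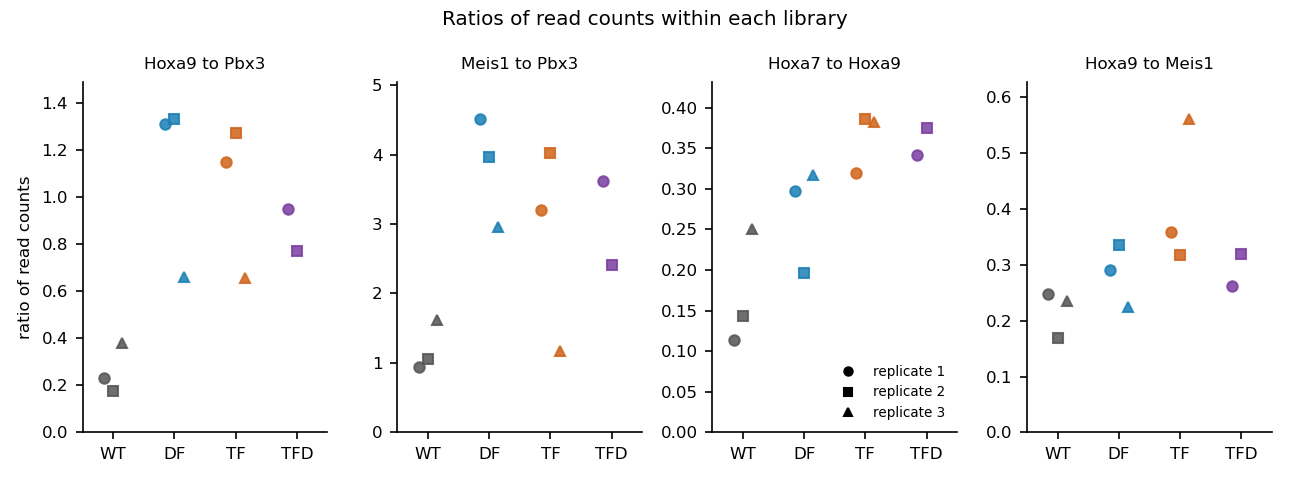
Ratios of read counts within each library on the y axis for 4 pairs of genes, by genotype on the x axis. Points are libraries, shaped by replicate number. Hoxa9 to Pbx3 separates WT (at most 0.381) from all mutant libraries (at least 0.655), and in Hoxa9 to Meis1 TF replicate 3 stands highest at 0.561.

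Within genotypes the spread between libraries varied from gene to gene. TF replicate 3 had the lowest TF value in 4 of the 6 genes and the highest in 1, Pbx3, while TF replicate 2 was highest in 5. For Meis1 in TF the coefficient of variation between libraries was 33.3%. In DF and TFD it was 2.92% and 1.23%, below the 6.58% and 6.39% that counting error alone gives. For Pbx3 it was 23.2% to 30.6% in every genotype. For Hoxa7 it was 58.2% in WT, where counting error alone gives 46.3%. In DF, TF and TFD it was 11.2%, 11.2% and 19.3% for Hoxa7, below the 24.3%, 20.7% and 20.0% of counting error. Hoxb3 had 46.2% in WT and 36.5% in TFD. Values below counting error do not show a small spread between mice. With 2 or 3 mice per genotype these values are rough, and they were not tested against each other. TF replicate 3, WT replicate 3 and TFD replicate 2 are the 3 libraries with at least 10000 Xist reads, and DF had none. These 3 had 3 to 12 reads of the Y chromosome gene Ddx3y, and all others 1040 to 2132. By these reads the 3 are from females and the others from males, so sex was not balanced over the genotypes. DF replicate 1 had 538 Xist reads beside 1628 of Ddx3y. With a term for the libraries with at least 10000 Xist reads the counts of the 6 genes called were unchanged, at 6, 5 and 4 in DF, TF and TFD.

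Of the Pbx and Meis relatives described here, none was called higher in a mutant genotype than in WT. These TALE genes were Pbx2, Pbx4, Pknox1, Pknox2, Tgif1 and Tgif2, listed with Pbxip1, a PBX-binding protein that is no homeodomain protein. Of these 7 genes, 0 were called higher in each comparison of a mutant with WT, and 2 were called lower in DF, 1 in TF and 1 in TFD. With 21.0%, 19.0% and 14.7% of all genes called higher and 16.6%, 15.6% and 11.6% lower, counts this small lie near the background. Pknox1, a close relative of Meis1 that also pairs with PBX, had −0.44, −0.43 and −0.53 in DF, TF and TFD (adjusted p = 0.0236, 0.0292 and 0.0243; edgeR). Tgif2, a repressor of the family, fell in DF by 0.68 (adjusted p = 0.0309), with −0.21 in TF and −0.42 in TFD. Pbx2, Pbx4, Pbxip1, Pknox2 and Tgif1 lay between −0.34 and 0.44 and passed the test nowhere.

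Several calls of these relatives were lost with a library left out or another model. Pknox1 was lost in DF without WT replicate 1, WT replicate 2, DF replicate 1 or DF replicate 2 (−0.42 to −0.37), in TF without WT replicate 1, WT replicate 2, TF replicate 1 or TF replicate 2 (−0.41 to −0.36), and in TFD without WT replicate 1, WT replicate 2 or either TFD library (−0.59 to −0.47). Tgif2 was lost in DF without WT replicate 1, WT replicate 3, DF replicate 1 or DF replicate 3 (−0.71 to −0.61), and with a term for libraries with many Xist reads (−0.61, adjusted p = 0.0604; edgeR).

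Kmt2a and Mllt3, whose products keep Hox and Meis1 transcription on, were lower in every mutant genotype. Of 22 such activator genes tested, 2 were called higher and 7 lower in DF, 0 and 8 in TF, and 1 and 5 in TFD, with median log2 fold changes of −0.12, −0.12 and −0.14. Of all genes, 16.6%, 15.6% and 11.6% were called lower and 21.0%, 19.0% and 14.7% higher. Kmt2a, the MLL histone methyltransferase that keeps Hox genes active, had 235.0 to 306.0 CPM in WT and 137.0 to 202.0 CPM in the mutant libraries. In DF, TF and TFD it fell by 0.89, 0.81 and 0.67 (adjusted p = 0.000473, 0.00109 and 0.00923; edgeR), and without TFD replicate 1 the TFD value was −0.48 (adjusted p = 0.098). Mllt3, a partner in MLL fusions and a subunit of the super elongation complex, fell by 1.92, 1.16 and 1.48 (adjusted p = 6.37e-05, 0.00195 and 0.00133), calls that held with any library left out. Ash2l, a core subunit of the MLL complex, rose by 0.43 and 0.51 in DF and TFD (adjusted p = 0.0255 and 0.0233) and had 0.35 in TF (adjusted p = 0.0606). Brpf1, a scaffold of the MOZ acetyltransferase complex, rose by 0.45 in DF (adjusted p = 0.0111), with 0.21 in TF and 0.33 in TFD.

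The higher calls among these activators depended on the libraries and the scaling. The DF call of Ash2l was lost without WT replicate 1, WT replicate 2, DF replicate 1 or DF replicate 2 (0.30 to 0.42) or with library totals (0.34, adjusted p = 0.0952; edgeR) and its TFD call without WT replicate 2 (0.38) or TFD replicate 1 (0.45), and it was called in TF without WT replicate 3 (0.46) or TF replicate 3 (0.43). Brpf1 was lost in DF without WT replicate 3 (0.32) or DF replicate 1 (0.39), and called in TF and TFD without WT replicate 1 (0.35 and 0.48) and in TFD with the Xist term (0.37).

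Polycomb genes silence Hox clusters through their products, and their counts of calls lay near or under the background. Of 23 tested, 2 were called higher and 3 lower in DF, 3 and 5 in TF, and 1 and 1 in TFD, which left 18, 15 and 21 not called, and the medians were −0.05, −0.02 and −0.01. Among all genes 21.0% were higher and 16.6% lower in DF, 19.0% and 15.6% in TF, and 14.7% and 11.6% in TFD, so the counts are no result about the group. Cbx7, a chromobox protein that reads the Polycomb mark, had 15.6 to 16.8 CPM in WT, 5.86 to 7.52 in DF, 9.49 to 12.3 in TF and 10.8 to 10.9 in TFD, so that no mutant library overlapped WT. It fell by 1.24 in DF, 0.63 in TF and 0.59 in TFD (adjusted p = 8.94e-05, 0.00723 and 0.0231; edgeR), and the TFD call was lost without WT replicate 1, WT replicate 3 or either TFD library (−0.60 to −0.57). Phf19, an accessory subunit of Polycomb repressive complex 2, rose by 0.63, 0.52 and 0.88 (adjusted p = 0.00417, 0.0125 and 0.00121), with the TF call lost without WT replicate 2 or WT replicate 3 (0.45 and 0.46). Ezh2, the methyltransferase of that complex, fell by 0.59 and 0.48 in DF and TF (adjusted p = 0.00413 and 0.0143) and had −0.38 in TFD (adjusted p = 0.0775). The TF call of Ezh2 was lost without WT replicate 2 or TF replicate 2 (−0.44 each), and its TFD value was called without TFD replicate 2 (−0.66), with DESeq2 (−0.39) and with the Xist term (−0.43). Cbx8 rose by 0.61 in DF and 0.73 in TF (adjusted p = 0.0256 and 0.011), with 0.59 in TFD (adjusted p = 0.0551). The DF call of Cbx8 was lost without WT replicate 1, WT replicate 2 or any DF library (0.49 to 0.63), with library totals (0.52) and with the Xist term (0.52), and its TFD value was called without TF replicate 3 (0.59) or TFD replicate 2 (0.79) and with the Xist term (0.61).

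**Figure D4:**
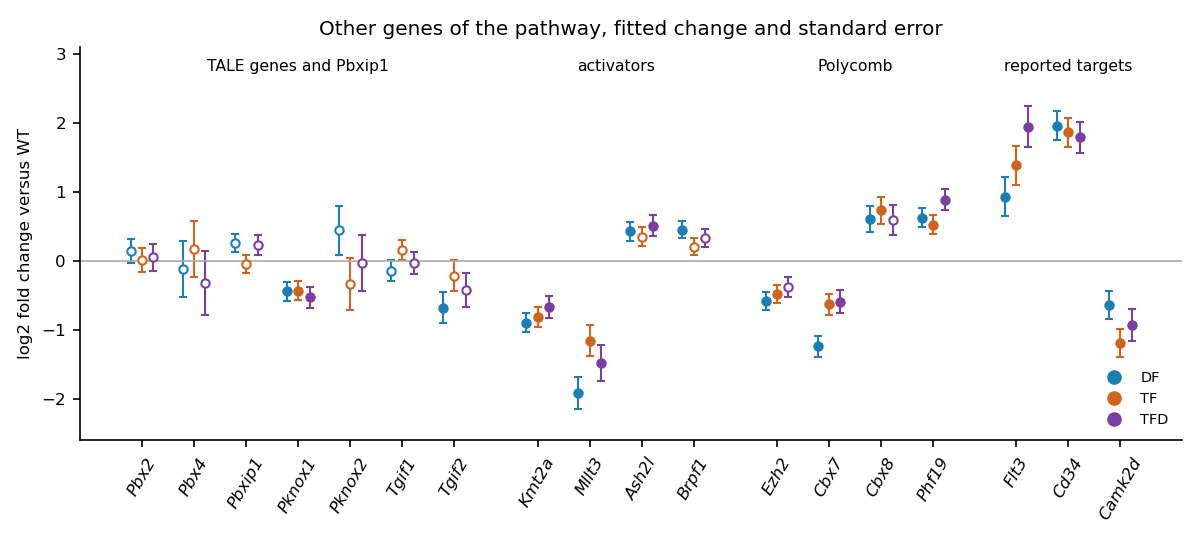
Log2 fold changes versus WT on the y axis for genes of 4 groups on the x axis: other TALE genes with Pbxip1, activators of Hox transcription, Polycomb genes and reported targets of HOXA9 and MEIS1. Bars are standard errors and filled points have an adjusted p under 0.05 (edgeR). Mllt3 and Kmt2a lie below 0 in all 3 genotypes, Cd34 lies at 1.79 to 1.96, and the target Trib2, at −6.44 to −4.56, is not drawn.

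Genes reported as targets of HOXA9 and MEIS1 were called in both directions. Of 20 tested, 5 were called higher and 6 lower in DF, 4 and 7 in TF, and 5 and 4 in TFD, with medians of −0.03, −0.11 and −0.08, beside 21.0%, 19.0% and 14.7% of all genes called higher and 16.6%, 15.6% and 11.6% lower. Flt3, which carries the ITD allele in these mice, rose by 0.93, 1.38 and 1.94 (adjusted p = 0.0184, 0.0023 and 0.000552), from 20.8 to 30.1 CPM in WT to 33.0 to 59.2 in DF, 55.4 to 71.3 in TF and 58.8 to 130.0 in TFD. Its DF call was lost without WT replicate 2, WT replicate 3 or DF replicate 1 (0.88, 0.79 and 0.71). Cd34, a progenitor surface antigen, rose by 1.96, 1.86 and 1.79 (adjusted p = 3.28e-05, 5.24e-05 and 0.00014). Camk2d, a kinase, fell by 0.64, 1.19 and 0.93 (adjusted p = 0.0265, 0.00101 and 0.0105), with the DF call lost without WT replicate 2, WT replicate 3, DF replicate 1 or DF replicate 3 (−0.69 to −0.56) and the TFD call without TFD replicate 1 (−0.73). Trib2, a pseudokinase, had 73.2 to 104.0 CPM in WT and 0.495 to 7.57 CPM in the mutant libraries, with log2 fold changes of −6.44, −4.56 and −5.82 (adjusted p = 6.53e-06, 1.76e-05 and 3.03e-05; edgeR). B cell markers, which fell in the same libraries, summed to 515.1 to 664.7 CPM in WT and 15.04 to 81.5 CPM in the mutants, and their part in the value of Trib2 was not tested.

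Markers of monocytes, B cells and erythroid cells differed between the same groups of libraries. All 8 monocyte markers were called higher in DF and TF and 7 of 8 in TFD, and their summed level was 1808 to 1944 CPM in WT and 5162 to 6642 CPM in the mutant libraries, with no overlap. Of 10 GMP markers, 8, 4 and 5 were called higher and 0 lower, and they summed to 3513 to 3668 CPM in WT, 5712 to 7526 in DF, 3704 to 5611 in TF and 4835 to 6697 in TFD. Stem cell markers gave 2 higher and 5 lower of 12 in DF, 2 and 4 in TF and 2 and 4 in TFD, and their sum overlapped WT in TF and TFD: 369 to 382 CPM in WT, 405 to 432 in DF, 332 to 412 in TF and 318 to 377 in TFD. Cd34 alone, which is also among the GMP markers and the targets, had 34.2 to 42.1 CPM in WT and 83.5 to 173.8 CPM in the mutants. Without Cd34, a choice made after the values were seen, the other 11 summed to 334.0 to 346.3 CPM in WT, 247.8 to 291.5 in DF, 201.1 to 248.5 in TF and 193.6 to 241.0 in TFD, all mutant libraries below WT, with median log2 fold changes of −0.43, −0.72 and −0.52. These 11 were mixed, and Tie1 among them was called higher in each genotype (log2 fold changes 1.635, 1.677 and 1.318). The TFD call of Tie1 was lost under 5 of the other fits. All 9 B cell markers were called lower in each genotype, and of 9 erythroid markers 9, 7 and 7 were called lower and 0 higher. Of 8 neutrophil markers 0 were called in DF, 3 lower in TF and 1 lower in TFD. Of 8 T and NK cell markers 1 was called higher and 4 lower in DF, 1 lower in TF and 2 lower in TFD, and of 5 megakaryocyte markers 2, 1 and 0 were lower. Of all genes 21.0%, 19.0% and 14.7% were called higher and 16.6%, 15.6% and 11.6% lower in DF, TF and TFD, so that with so few markers the neutrophil, T and NK cell and megakaryocyte counts, and the higher calls of stem cell markers, are not read as differences of those cell types. No marker was at 0 in all libraries of a genotype. The part of cell make-up in the values of the Hox, Meis1 and Pbx3 genes was not tested.

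TF replicate 3, which was lowest for Meis1, also had the lowest GMP sum of its genotype, 3704 CPM, and the highest sums of erythroid markers, 1903 CPM, and of B cell markers, 81.5 CPM, among mutant libraries. Its monocyte sum, 5162 CPM, was above the WT range, and its 5.02 CPM of Hoxa9 and 1.92 CPM of Hoxa7 were above the WT ranges of these genes. For both genes, the 95% Poisson interval of its reads overlapped that of the highest WT library. Whether cell make-up has a part in the values of this library was not tested.

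**Figure D5:**
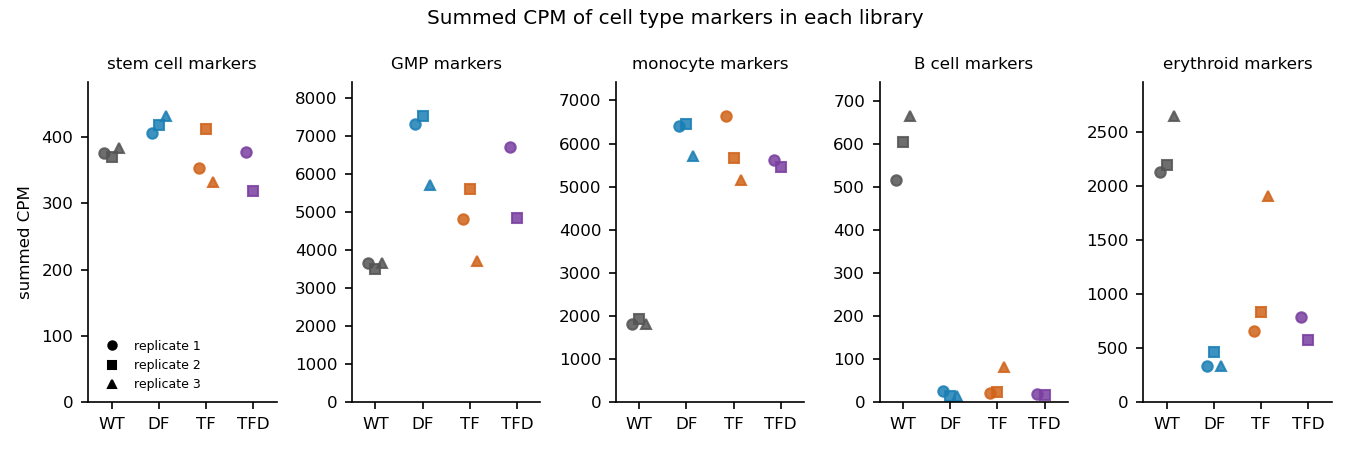
Summed CPM of the markers of 5 cell types in each library on the y axis, by genotype on the x axis. Points are libraries, shaped by replicate number. Monocyte sums separate WT (at most 1944) from the mutants (at least 5162), and TF replicate 3 lies at 1903 for erythroid markers. Stem cell sums with Cd34 included overlap WT in TF and TFD. Without Cd34 (not drawn), a choice made after the values were seen, every mutant library is below WT.

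The genes whose levels ran most alike to each member over the 11 libraries were found by the root mean square (RMS) difference of centred log2 CPM. For Hoxa9 they were Atg9b (RMS 0.12 on the log2 scale), Tnfrsf13b (0.15) and Slc25a4 (0.18), and for Hoxb4 Nudt16 (0.13), Xylt2 (0.14) and Lcmt2 (0.16). For Hoxa7 they were Il31ra (0.30), Kif5a (0.31) and the monocyte marker Cx3cr1 (0.32), and for Hoxb3 Zeb2os (0.27), Col4a1 (0.28) and Tbxas1 (0.30). For Meis1 they were Rab44 (0.13), Dnajb5 (0.14) and Cdk6 (0.15), genes in which TF replicate 3 was also low. For Pbx3 they were Gprasp1 (0.18), Itgb1bp2 (0.20) and Kmt2a (0.21). The median RMS over all genes was 1.01 for Hoxa7, 0.57 for Hoxa9, 0.82 for Hoxb3, 0.50 for Hoxb4, 0.42 for Meis1 and 0.56 for Pbx3. Among members the one nearest to Hoxa7 was its neighbour Hoxa9 (0.54) and the one nearest to Hoxb3 was its neighbour Hoxb4 (0.44), whereas Hoxa9 and Hoxb4 were nearest to each other (0.31). These values grow with a gene's own spread around its mean, which was 0.999 for Hoxa7, 0.81 for Hoxb3, 0.54 for Hoxa9 and 0.46 for Hoxb4, and so do not rank the pairs. The libraries share genotype differences, so these values describe likeness over 4 genotypes and carry no test.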

How the data were processed

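Total RNA of BM cells, depleted of globin mRNA, was sequenced from stranded total RNA libraries. Per the study's methods, the counts come from featureCounts run by the authors on STAR alignments (mm10, refGene models) without multi-mapping reads, and a gene had to exceed 0.5 CPM in at least 4 libraries. Tool versions and strand settings are not given in the sources used here. The table deposited by the authors holds whole-number counts of reads for each gene, log2 CPM values that match edgeR's cpm (prior count 0.25) to within 5e-09, and the exon length of each gene. That filter keeps a gene seen in mutant libraries only, but would drop 1 seen only in the 3 WT libraries.

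Differences were tested on the counts with edgeR 4.0.16 in R 4.3.3, with TMM factors (0.924 to 1.04), the same filter and a quasi-likelihood F test on a mean for each genotype. Benjamini-Hochberg adjustment ran over 12175 genes, and calls were made at an adjusted p below 0.05. CPM values carry TMM factors. Poisson intervals (95%) cover counting error only, and 2 or 3 mice per genotype limit the precision. On simulated counts for DF versus WT over 12175 genes, edgeR recovered 80 of 100 genes changed by 1 and 99 of 100 changed by 2 on the log2 scale, with 13 false calls. The changed genes were drawn at random from all levels. These rates therefore do not carry over to genes as scarce as Hoxa7 and Hoxb3, or to TFD.

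The members and the gene lists were chosen with earlier results of these data known. Named genes were the members, the other TALE genes listed that were in the table (a further listed item is not reported here), from each other list the 2 with the highest and the 2 with the lowest mean change over the mutant genotypes (cell type markers are given as counts and sums), and the 3 genes nearest to each member among those with a mean log2 CPM at or above 1. Alternatives were library totals, RLE factors, DESeq2 1.42.0, no filter, only the groups compared, a replicate block, a model term for the libraries that hold 10000 or more Xist reads, and each library left out. The stem cell sum without Cd34 was added after the data were seen. Figures were drawn with matplotlib 3.10.9. TFD replicate 3 was not analysed here.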

Additional observations from a re-analysis of the deposited data

Results flagged for a closer look

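A test of the difference between 2 mutant genotypes passed for 6 of the genes chosen by the naming rule, all in DF versus TF and none of them a member. Of all genes tested, 1.67% were called higher and 4.27% lower in DF versus TF, so the count of 6 is no result about the named genes as a group. Cbx7 had a log2 difference of −0.61, lower in DF (SE 0.16, adjusted p = 0.0414), with 5.86 to 7.52 CPM in DF and 9.49 to 12.3 CPM in TF. Ly6a, which encodes the stem cell antigen Sca-1, was lower in DF by −2.06 (SE 0.52, adjusted p = 0.0391), with 2.38 to 2.90 CPM in DF and 4.09 to 22.9 CPM in TF, where its libraries spread widely. Il31ra, the gene nearest to Hoxa7 in pattern, was lower in DF by −0.82 (SE 0.20, adjusted p = 0.0344; edgeR's quasi-likelihood test throughout). The erythroid markers Klf1 (−3.04, adjusted p = 0.00822), Alas2 (−2.47, adjusted p = 0.00382) and Car1 (−3.31, adjusted p = 0.0031) were lower in DF too, among 8 of 9 erythroid markers that were. Alas2 and Car1 were called with any library left out and Klf1 was not without DF replicate 2 (−3.08, adjusted p = 0.0522; edgeR). The other calls were fragile. Cbx7 was lost without WT replicate 2, WT replicate 3, any DF library, TF replicate 1 or TF replicate 3 (−0.69 to −0.49), Ly6a without WT replicate 2, WT replicate 3, any DF library or TF replicate 3 (−0.93 without the last), and Il31ra without any DF library, TF replicate 1 or TF replicate 2 (−0.93 to −0.70). Cbx7 and Ly6a were also lost with only the groups compared (−0.64 and −2.09) and with the Xist term (−0.63 and −1.67). Hoxa7 itself was lower in every DF library than in every TF library, but its log2 difference of −0.55 was not called (adjusted p = 0.409).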

How the results depend on the processing

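The count of the 6 genes called was 6 in DF and 5 in TF under every alternative that kept all libraries. In TFD it was 4, and 3 with library totals, RLE factors or the replicate block. Leaving out each library in turn, it ranged from 3 to 6 in DF, from 2 to 6 in TF and from 1 to 4 in TFD. It was 3 in DF without WT replicate 1 or DF replicate 1, 3 in TF without WT replicate 1 or WT replicate 2 and 2 without TF replicate 2. In TFD it was 2 without WT replicate 1, WT replicate 2 or TFD replicate 1, and 1 without TFD replicate 2. No direction against WT changed for any of the 6 genes, and the count between mutants was 0 in every fit. Where a group was left with 1 library, that library was assumed to vary like the other groups.

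Some small differences between mutants changed sign. In TFD versus DF, Hoxa9 was −0.027 with the replicate block and −0.0396 with the Xist term, and Meis1 was 0.0848 with library totals, 0.0194 with RLE factors, 0.0194 with DESeq2, 0.0047 with only the groups compared and 0.12 with the Xist term. With libraries left out, Hoxa9 ranged there from −0.0929 to 0.18 and Meis1 from −0.0213 to 0.0366. In DF versus TF the ranges were −0.25 to 0.0354 for Hoxa9, −0.10 to 0.34 for Hoxb3, −0.32 to 0.0329 for Hoxb4 and −0.42 to 0.0585 for Pbx3. In TFD versus TF they were −0.26 to 0.12 for Hoxa7, −0.18 to 0.0671 for Hoxa9, −0.72 to 0.0519 for Hoxb3, −0.090 to 0.19 for Hoxb4 and −0.16 to 0.39 for Pbx3, and Hoxb4 was −0.00099 with the block. Among TALE genes versus WT, Pbx2 was −0.0036 with RLE factors and −0.0033 with DESeq2 in TF and −0.0112 with the block in TFD, and with the Xist term Pknox2 was 0.0022 and Tgif1 0.0032 in TFD. With libraries left out, Pbx2 ranged from −0.0902 to 0.16 in TF and −0.32 to 0.35 in TFD, Pbx4 from −0.50 to 0.18 in DF, −0.18 to 0.49 in TF and −0.85 to 0.0294 in TFD, Pknox2 from −0.67 to 0.36 and Tgif1 from −0.12 to 0.13 in TFD. None of these values was called, and the cause was not tested.

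The replicate numbers share a name only, since same-numbered libraries had correlations of their deviations from −0.33 to 0.28. The block left the members called at 6 in DF, 5 in TF and 3 in TFD, where Meis1 was not called (0.58, adjusted p = 0.107; edgeR). Of the other genes named with values versus WT, Pknox1 (−0.49, adjusted p = 0.0521) and Ash2l (0.51, adjusted p = 0.0508) were also not called with it in TFD, nor were Cbx7, Ly6a and Il31ra in DF versus TF (−0.61, −1.81 and −0.82, adjusted p = 0.0526, 0.0617 and 0.0577). Depth limits Hoxa7 and Hoxb3 most, with 2 to 10 reads per WT library.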
